A study of Mus musculus with 12 samples.

Results

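Cebpa, Cebpb, Cebpd and Cebpg encode CCAAT/enhancer-binding proteins (C/EBP) alpha, beta, delta and gamma, and their transcripts were followed in bulk RNA-seq of mouse retina. The 4 genes are 4 of the 25124 listed in both expression tables of the series and were taken by symbol. They were chosen by earlier results in these same contrasts, so their levels and differences are given as a description, with no test. The libraries came from 6 groups of 2 retinas of wild-type (WT) C57BL/6J mice. In the single-elevation experiment, intraocular pressure (IOP) of one eye was raised to 30 mmHg for 1 h in animals aged 3 or 18 months, and both retinas were collected 2 days later. This gave 3mo IOP, 3mo control, 18mo IOP and 18mo control, where control is the untreated eye opposite a treated one. In the repeated experiment, the eyes of animals aged 3 months at the start received 4 such elevations spaced about 2 weeks apart and were collected 2 days after the last (4xIOP), with their opposite eyes as 4xIOP control. The control eyes therefore came from animals that had a treated eye, and no group holds eyes of untreated animals.

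C/EBP proteins bind DNA as pairs through a basic leucine zipper (bZIP), with one another or with other bZIP proteins. C/EBP beta and delta are induced by IL-6, IL-1 and bacterial products and drive genes of the acute-phase response, while C/EBP alpha directs the maturation of myeloid cells, hepatocytes and fat cells and restrains division. C/EBP gamma lacks a strong activation domain and is widely made, and acts mainly as a partner of the others. In the retina, C/EBP beta and delta are known mostly from glia and microglia under injury or inflammation.

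The libraries held 39766242 to 59455051 tags, of which 44.2% to 71.5% lay in exons. Levels are FPKM, fragments per kilobase of transcript, scaled to the tags of the library. The lowest value of a member was 12 tags, for Cebpa in 4xIOP control replicate 1, and its exact Poisson 95% interval of 0.0594 to 0.201 FPKM covers counting error only. Between 59.2% and 68.3% of the values of 1 to 100 tags in a library were even numbers, so tags are not all independent fragments. Rod photoreceptor markers were present in all libraries, with 10 of 10 genes tested and a summed level of 5414 to 33711 FPKM. Nothing in the labels ties a library to an animal, so spreads and p-values describe the libraries at hand. In bulk retina, fewer cells of a type and less RNA per cell cannot be told apart.

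In mm10, Cebpa lies on chromosome 7 (35119293 to 35121928, plus strand) and Cebpg on the same chromosome (35046422 to 35056566, minus strand). Cebpb lies on chromosome 2 (167688915 to 167690432, plus strand) and Cebpd on chromosome 16 (15887286 to 15889545, plus strand). The counted transcripts were 2633 bases long for Cebpa, 1515 for Cebpb, 2257 for Cebpd and 4698 for Cebpg. Their GC content was 62.6%, 67.2%, 51.6% and 43.3%, with Cebpb at percentile 99.7 and Cebpa at percentile 98.2 of all tested transcripts. GENCODE places Tmem189 over Cebpb and Spidr over Cebpd, both on the opposite strand, and antisense models over Cebpa (Gm45091) and Cebpg (Gm45095). The libraries were strand-specific and counted by strand.

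RefSeq promoters (GRCm38.p6, 250 bases before to 50 bases after the annotated start) were at hand for Cebpb, Cebpa and Cebpg, and are shown because the first and second of these varied widely between groups and the last did not. Capitals mark each match, on either strand, to TGACG (the core of the cAMP response element, also part of the full element TGACGTCA), CCAAT or TATAAA. The windows are chr2:167688665-167688964 (plus strand) for Cebpb, chr7:35119043-35119342 (plus strand) for Cebpa and chr7:35056517-35056816 (minus strand) for Cebpg.
Cebpb: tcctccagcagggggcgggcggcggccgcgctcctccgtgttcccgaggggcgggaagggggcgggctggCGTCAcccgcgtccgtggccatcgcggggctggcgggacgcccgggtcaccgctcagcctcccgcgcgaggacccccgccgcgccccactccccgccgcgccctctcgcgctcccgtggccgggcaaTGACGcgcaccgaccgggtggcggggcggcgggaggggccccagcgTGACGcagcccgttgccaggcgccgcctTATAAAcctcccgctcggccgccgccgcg
Cebpa: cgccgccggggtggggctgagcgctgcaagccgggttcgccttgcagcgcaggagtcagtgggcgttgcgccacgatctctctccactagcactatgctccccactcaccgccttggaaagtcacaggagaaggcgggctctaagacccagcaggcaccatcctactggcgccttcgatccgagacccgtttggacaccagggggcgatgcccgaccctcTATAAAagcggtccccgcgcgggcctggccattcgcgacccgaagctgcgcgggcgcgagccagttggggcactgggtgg
Cebpg: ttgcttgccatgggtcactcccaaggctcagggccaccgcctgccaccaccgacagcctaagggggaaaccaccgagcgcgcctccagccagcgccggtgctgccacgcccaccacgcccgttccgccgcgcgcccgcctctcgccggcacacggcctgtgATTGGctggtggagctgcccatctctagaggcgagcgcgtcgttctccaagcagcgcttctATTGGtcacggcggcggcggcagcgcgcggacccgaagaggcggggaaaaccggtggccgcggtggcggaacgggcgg
Counted from the annotated start, TGACG matches of Cebpb began at positions -180 (read on the opposite strand), -53 and -7, and its TATAAA at position 21. Cebpa held a TATAAA at position -30. Cebpg held CCAAT on the opposite strand at positions -89 and -28 and no TATAAA. Among the 32851 promoters of this length in the reference, TGACG occurs in 20.8%, CCAAT in 37.4% and TATAAA in 13.6%. None of the 3 windows held TTGCNNAA (a C/EBP site, in 10.8% of promoters), TGACGTCA (1.79%), TTCNNNGAA (a STAT site, 8.30%), TGACTCA (an AP-1 site, 5.20%) or the NF-kB consensus (8.46%). The GC content of the windows was 80.7% for Cebpb, 67.3% for Cebpa and 71.7% for Cebpg, against a median of 52.7% over all promoters.

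In 3mo control retinas Cebpg was the most abundant member or close to it. Cebpg stood at 5.24 and 4.25 FPKM in replicates 1 and 2. Cebpd stood at 2.43 and 4.66 FPKM, with only its second library reaching into the range of Cebpg. Cebpb was at 0.986 and 0.719 FPKM and Cebpa at 0.366 and 0.334 FPKM, so neither overlapped the more abundant pair. The controls of the repeated experiment gave the same order, with Cebpg at 5.36 and 4.95 FPKM, Cebpd at 0.858 and 1.42 FPKM, Cebpb at 0.465 and 0.281 FPKM and Cebpa at 0.115 and 0.233 FPKM. Both tables were scaled separately, and these levels are set side by side only.

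**Figure D1:**
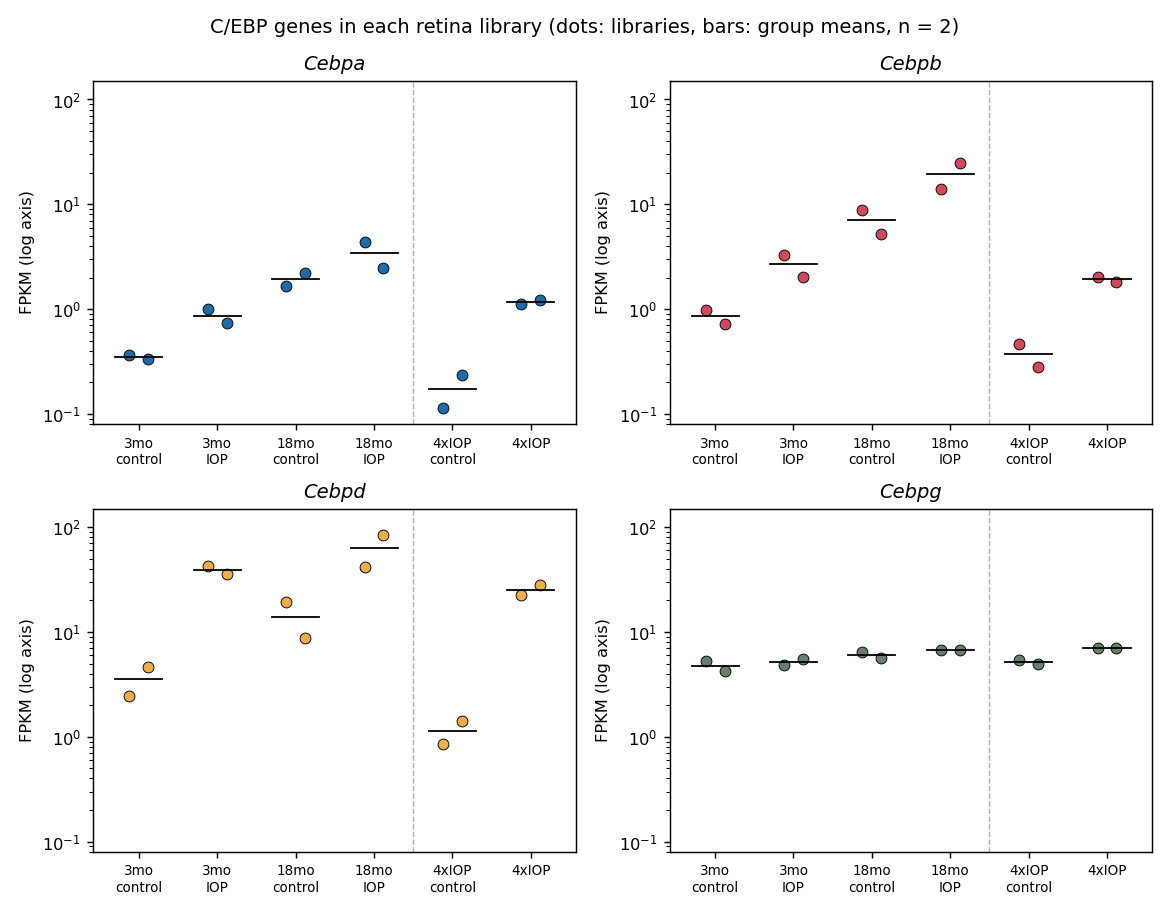
FPKM of Cebpa, Cebpb, Cebpd and Cebpg on a log axis in each of the 6 groups, with dots for libraries (n = 2) and black bars for group means; the dashed line parts the single from the repeated experiment, which were scaled separately. Cebpg stays between 4.25 and 7.11 FPKM in all 12 libraries, while Cebpd runs from 0.858 to 84.0 FPKM.

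The comparison of 18mo control with 3mo control sets untreated eyes of old animals against those of young ones, both from animals with a treated eye. Cebpb was the member with the largest difference, Cebpa and Cebpd also stood higher, and Cebpg was barely apart. Cebpb reached 8.85 and 5.25 FPKM in 18mo control, against at most 0.986 FPKM in 3mo control, a ratio of means of 8.27. Its difference of log2(FPKM + 0.5), the scale used for all differences here, was 2.45 ± 0.347 (standard error of the fit, n = 2 per group) and ranked 27 among 13731 tested genes. Cebpa reached 1.66 and 2.22 FPKM, 5.55 times its 3mo mean, with a difference of 1.51 ± 0.277. Cebpd reached 19.3 and 8.83 FPKM, 3.96 times its 3mo mean, with a difference of 1.80 ± 0.448, and its 2 old libraries differed 2.18-fold from each other. Cebpg was at 6.50 and 5.64 FPKM, 1.28 times its 3mo mean, with a difference of 0.33 ± 0.179 where the median of all tested genes was 0.16. Every member had both old libraries above both young ones, which held for 45.7% of all tested genes. The call used below for other genes (limma with an absolute difference of 1 or more and a p of 0.05 or less after Benjamini-Hochberg adjustment) was met by 23.2% of tested genes, 1595 of 13731 higher and 1590 lower. The age groups also differed in make-up by transcript length, since the median FPKM of short over long transcripts was 3.03 and 9.12 in untreated eyes at 3 months but 1.59 and 1.52 at 18 months. With length and GC trends removed from each library, the Cebpa difference was 0.81, and with the length trend alone removed that of Cebpg was 0.0021.

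A single elevation at 3 months was followed by a large difference in Cebpd and smaller ones in Cebpb and Cebpa. Cebpd stood at 42.5 and 36.0 FPKM in 3mo IOP against 2.43 and 4.66 FPKM in 3mo control, a ratio of means of 11.1. Its log2 difference of 3.35 ± 0.448 ranked 8 among the 13731 tested genes. Cebpb stood at 3.31 and 2.03 FPKM, 3.13 times its control mean, with a difference of 1.20 ± 0.347. Cebpa stood at 1.01 and 0.729 FPKM, 2.48 times its control mean, with a difference of 0.68 ± 0.277. In these 3 genes both treated libraries lay above both controls, as they did for 28.6% of tested genes. Cebpg, at 4.86 and 5.58 FPKM, overlapped its controls, and its difference of 0.13 ± 0.179 equalled the median of all tested genes (0.13) and became -0.062 with median-of-ratios size factors, -0.040 with quantile normalization and -0.073 with voom. The call was met by 0.575% of tested genes. This total of 79 genes rested on single libraries, as none was called without 3mo control replicate 1 or without 3mo IOP replicate 1, 7 without 3mo IOP replicate 2 and 257 without 3mo control replicate 2.

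After the same treatment at 18 months all 4 genes stood at their highest group means of the single-elevation experiment, over controls that already stood high. Cebpd was at 41.5 and 84.0 FPKM in 18mo IOP against 19.3 and 8.83 FPKM in 18mo control, 4.47 times the control mean, with a log2 difference of 2.13 ± 0.448. Cebpb was at 14.0 and 24.8 FPKM, 2.75 times its control mean, with a difference of 1.39 ± 0.347. Cebpa was at 4.36 and 2.47 FPKM, 1.76 times its control mean, with a difference of 0.64 ± 0.277. That difference became 0.29 without 18mo IOP replicate 1 and 1.00 without 18mo IOP replicate 2. Cebpg was at 6.71 and 6.74 FPKM, with a difference of 0.14 ± 0.179 where the median of all tested genes was 0.089. All 4 members had both treated libraries above both controls, as 36.5% of tested genes did. The call was met by 17 genes or 0.124% of those tested, and this total was 0 without either 18mo control library, 6 without 18mo IOP replicate 2 and 144 without 18mo IOP replicate 1.

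**Figure D2:**
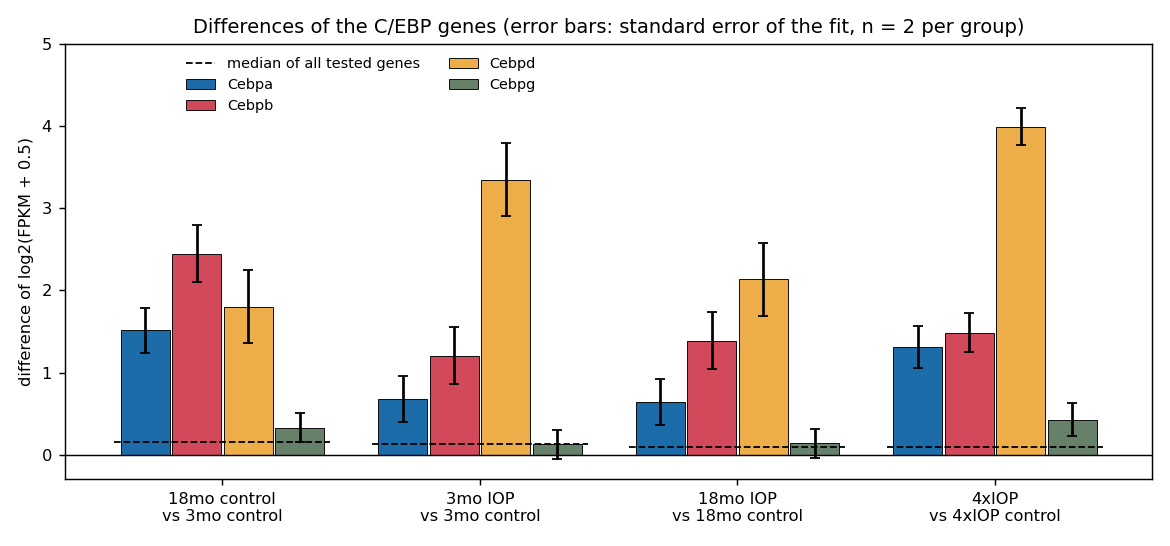
Differences of log2(FPKM + 0.5) of the 4 genes in the 4 comparisons, as bars with the standard error of the limma fit (n = 2 per group), and the median of all tested genes as dashed lines. Cebpd has the tallest bar after IOP in each experiment (3.35, 2.13 and 3.99), Cebpb with age (2.45), and Cebpg the lowest bar throughout.

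The response of each member was set against age as 18mo minus 3mo differences of log2 differences. It was -1.22 ± 0.633 for Cebpd, 0.18 ± 0.490 for Cebpb, -0.03 ± 0.392 for Cebpa and 0.01 ± 0.253 for Cebpg. For Cebpd the value ranged from -1.76 to -0.68 when each library was left out in turn. For Cebpb the same range was -0.22 to 0.58 and crossed 0. For Cebpa it turned from -0.39 without 18mo IOP replicate 1 to 0.32 without 18mo IOP replicate 2, which is no larger than its error. Over all genes the limma interaction called 0% of 13731 (0 genes at an adjusted p of at most 0.05), with 218 at an unadjusted p under 0.05 and 0 by voom. The smaller step of Cebpd at 18 months started from a control mean of 14.0 FPKM rather than 3.55 FPKM. Treated levels of Cebpd overlapped between ages (ratio of means 1.60), whereas those of Cebpb were 7.28 times and those of Cebpa 3.93 times higher at 18 months, with no overlap. The untreated 18mo libraries lay above the treated 3mo libraries for Cebpb (ratio 2.64), Cebpa (2.24) and Cebpg (1.16), and below them for Cebpd (0.357). The age comparison shares its control libraries with both IOP comparisons, so these differences are not independent of one another.

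After 4 elevations Cebpd, Cebpb and Cebpa stood above their opposite eyes, and Cebpg was modestly higher. Cebpd was at 22.8 and 28.0 FPKM in 4xIOP against 0.858 and 1.42 FPKM, 22.3 times the control mean, with a log2 difference of 3.99 ± 0.228 that ranked 28 among 13718 tested genes. Cebpa was at 1.11 and 1.22 FPKM, 6.70 times its control mean. Cebpb was at 2.05 and 1.83 FPKM, 5.19 times its control mean. On the log2 scale with its added 0.5, which compresses low levels, these were 1.31 ± 0.256 and 1.49 ± 0.235, and the alternatives ran from 0.83 (quantile normalization) to 2.66 (voom on the recovered tags) for Cebpa and from 1.10 (pseudocount of 1) to 2.27 (voom) for Cebpb. Cebpg was at 7.08 and 7.11 FPKM against 5.36 and 4.95 FPKM, 1.38 times the control mean, a difference of 0.43 ± 0.198 where the median of all tested genes was 0.096. Both treated libraries lay above both controls for all 4 members and for 27.7% of tested genes. The call was met by 6.15% of tested genes, 748 of 13718 higher and 95 lower.

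The make-up of C/EBP transcripts differed between groups, with Cebpg averaging the largest share in untreated young eyes and Cebpd in all others. Summed over the 4 genes, levels averaged 9.49 FPKM in untreated and 48.0 FPKM in treated eyes at 3 months, 29.1 and 92.3 FPKM at 18 months, and 6.84 and 35.6 FPKM in the repeated experiment. Cebpg made up 42.7% to 58.1% of the sum in 3mo control libraries and 71.9% to 78.8% in 4xIOP control. It made up 5.71% to 12.6% in the 4 libraries after a single elevation and 18.6% to 21.5% in 4xIOP. Cebpd took 81.2% to 82.3% in 3mo IOP, 62.3% to 71.2% in 18mo IOP and 69.0% to 73.4% in 4xIOP. Cebpb held 23.9% to 24.4% in 18mo control and 21.0% to 21.1% in 18mo IOP, and at most 10.9% in any library of the younger groups. Untreated aged and treated young retinas differed in the balance of Cebpb and Cebpd, with 5.25 to 8.85 FPKM of Cebpb beside 8.83 to 19.3 FPKM of Cebpd in 18mo control, and 2.03 to 3.31 FPKM beside 36.0 to 42.5 FPKM in 3mo IOP.

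**Figure D3:**
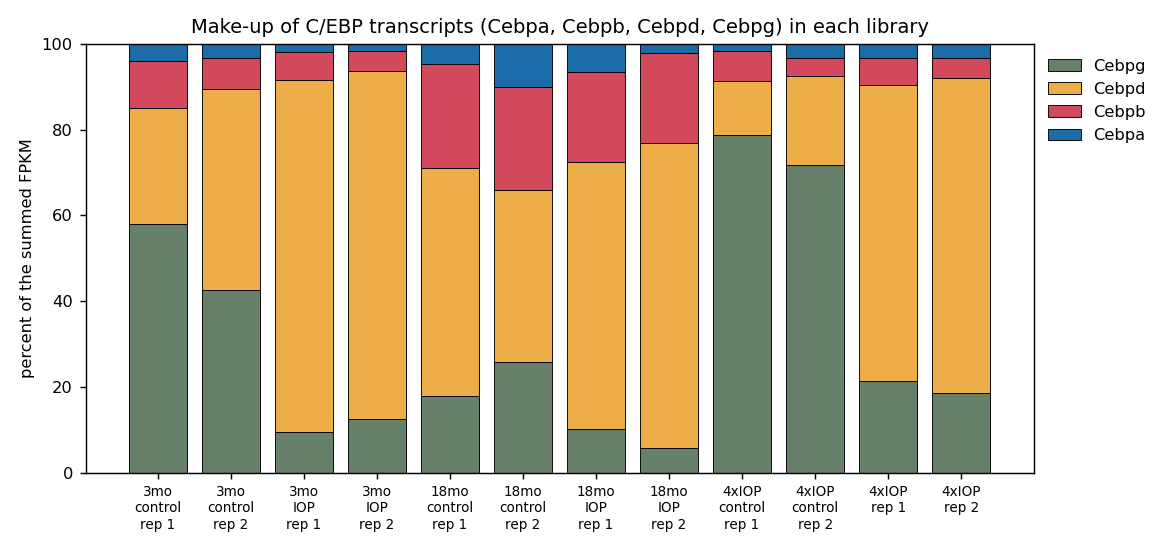
Share of Cebpg, Cebpd, Cebpb and Cebpa, in percent, of the summed FPKM of the 4 genes, as stacked bars for each of the 12 libraries. Cebpg fills 42.7% to 78.8% of the bars of young control retinas, Cebpd 62.3% to 82.3% of the bars of treated retinas, and Cebpb is widest at 18 months.

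Likeness across the 8 single-elevation libraries was measured as Pearson's r of log2(FPKM + 0.5), as a description over libraries that fall into 4 groups and come from 1 table. Cebpa and Cebpb followed each other most closely among the members (r = 0.913), then Cebpb and Cebpg (0.883), Cebpa and Cebpg (0.817) and Cebpb and Cebpd (0.746). Cebpd was less like Cebpa (0.626) and Cebpg (0.581). The gene most like Cebpa was Tlr2 (r = 0.994), a receptor for bacterial lipoproteins, ahead of Col18a1 and Pald1. Cebpb was most like Fgfrl1 (0.994), Ccdc102a and Lrrc66. Cebpd was most like Cited1 (0.988), Slc39a1 (a zinc transporter) and Fas (a death receptor), and Cebpg most like Pias2 (0.996), Hnrnpll and Spats2. In the separate 4xIOP libraries these genes did not all differ like the member they followed. Of those like Cebpa, Tlr2 averaged 2.66 FPKM against 0.0755 FPKM in controls, Pald1 1.48 against 0.696 FPKM and Col18a1 2.40 against 2.13 FPKM. Of those like Cebpb, Fgfrl1 averaged 1.78 against 0.857 FPKM, Lrrc66 7.34 against 1.96 FPKM and Ccdc102a 0.331 against 0.342 FPKM. All 3 genes like Cebpd had higher means, Cited1 with 4.40 against 0.867 FPKM, Slc39a1 with 16.7 against 6.09 FPKM and Fas with 2.29 against 0.306 FPKM. Those like Cebpg lay close to their controls, with Pias2 at 12.6 against 13.6 FPKM, Hnrnpll at 7.70 against 7.32 FPKM and Spats2 at 7.91 against 8.09 FPKM.

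Other genes with C/EBP names did not meet the call in any comparison. Cebpe, known from granulocyte maturation, was listed at 0.039 FPKM or less in all 12 libraries and was not tested. Ddit3 (CHOP), a stress-induced partner that keeps C/EBP proteins from their usual sites, stood at 35.4 and 52.2 FPKM in 3mo control and 33.0 and 31.5 FPKM in 18mo control. After IOP it was at 55.5 and 48.5 FPKM at 3 months, 35.2 and 43.9 FPKM at 18 months, and 25.9 and 33.2 FPKM in 4xIOP against 24.7 and 21.2 FPKM. Cebpz, a CCAAT-binding protein outside the bZIP family, lay between 7.31 and 16.4 FPKM.

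Of 17 bZIP partners, which pair with C/EBP proteins or compete for related sites, 14 were tested in the single-elevation libraries and 7 were called higher with age, as 1595 of all 13731 tested genes were. Of the 11 that reached 0.5 FPKM in 3mo control, which Fosb did not, 6 were called higher. Fos reached 207 and 104 FPKM in 18mo control against 3.07 and 2.66 FPKM (log2 difference 5.45 ± 0.507, limma adjusted p = 0.00265). Fosb, at 29.1 and 12.9 against 0.577 and 0.190 FPKM, and Jun, at 89.5 and 49.4 against 5.57 and 3.28 FPKM, also rose (adjusted p = 0.00371 and 0.00265 in limma). These are immediate-early genes, and replicate 1 of the 18mo controls was the higher library for them as it was for Cebpb and Cebpd. None of the 14 was called after a single elevation at either age, beside 0.575% and 0.124% of all tested genes. At 3 months 14 had a positive difference and 11 were higher without overlap, and at 18 months 11 and 10. Over all tested genes 28.6% and 36.5% were higher without overlap. In the controls of each age 11 and 13 of the 14 reached 0.5 FPKM. Of 12 tested after 4 elevations 2 rose, beside 6.15% of all tested genes called. These were Atf3 (15.3 and 19.9 against 3.78 and 2.71 FPKM, limma adjusted p = 2.42e-05) and Junb (15.02 and 12.8 against 3.31 and 4.85 FPKM, adjusted p = 0.000323).

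Inducers of C/EBP beta and delta were followed as 27 ligands, receptors and mediators of the IL-6, IL-1, TNF and cAMP pathways. With age 12 of 23 tested were called higher, as 1595 of all 13731 tested genes were, led by Il1a, Socs3 and Tnf and with a median difference 0.86 above that of all tested genes. Of the 19 that reached 0.5 FPKM in 3mo control, which Il1a and Tnf did not, 10 were called higher. Il1a was at 7.60 and 5.64 FPKM in 18mo control against 0.074 and 0.171 FPKM, and Tnf at 2.91 and 2.697 FPKM against 0 and 0.026 FPKM. Socs3, which is transcribed under STAT3 and restrains IL-6 signalling, was at 20.6 and 9.33 against 0.956 and 0.801 FPKM (log2 difference 3.39 ± 0.359, limma adjusted p = 0.00312). After a single elevation at 3 months 3 of 23 rose: Socs3 at 7.77 and 6.09 FPKM, Tnfrsf1a at 5.65 and 3.77 FPKM and Osmr at 5.46 and 4.56 FPKM (limma adjusted p = 0.0325 for each), beside 0.575% of all tested genes called. None of the genes listed here was called in this comparison with voom or with no filter on low values. Osmr, the oncostatin M receptor, was the 1 gene of 23 called at 18 months, beside 0.124% of all tested genes. It was at 10.8 and 14.9 against 3.64 and 3.04 FPKM (limma adjusted p = 0.0443), and was not called with only the 2 groups compared, with size factors, with quantile normalization or with voom. After 4 elevations 9 of 20 rose, led by Socs3 (16.2 and 13.2 against 0.351 and 0.313 FPKM, log2 difference 4.19 ± 0.198, limma adjusted p = 6.69e-08), Il1b (4.72 and 4.17 against 0 and 0.035 FPKM) and Tnfrsf1a (6.92 and 5.87 against 0.587 and 0.706 FPKM), beside 748 of all 13718 tested genes called higher. Of the 17 that reached 0.5 FPKM in controls, which Il1b and Socs3 did not, 7 rose. Of 11 genes for kinases and ubiquitin ligases that act on C/EBP proteins, Mapk14 alone was called, with age (13.6 and 16.0 against 8.38 and 5.64 FPKM, limma adjusted p = 0.00819), beside 23.2% of all tested genes.

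Known C/EBP targets of the acute-phase and inflammatory response were followed as 30 genes, of which Lcn2, Saa3 and Serpina3n stood far above their controls after 4 elevations. In the 4xIOP libraries 15 of 30 passed the filter on low values and all 15 rose, beside 748 of all 13718 tested genes called higher. However, 12 of these passed only through the treated group, and of the 3 that also reached 0.5 FPKM in controls 3 rose. Lcn2, an iron-scavenging acute-phase protein, was at 284 and 825 FPKM in 4xIOP against 1.43 and 0.951 FPKM (log2 difference 8.18 ± 0.404, limma adjusted p = 8.20e-08). Serpina3n, a protease inhibitor of reactive glia, was at 118 and 289 against 0.593 and 1.34 FPKM (7.03 ± 0.376, adjusted p = 1.61e-07). Saa3 was at 126 and 259 FPKM and was listed at 0 in both controls. At 3 months after a single elevation, 2 of 17 were called, Serpina3n (106 and 120 against 8.18 and 3.04 FPKM, limma adjusted p = 0.0319) and the chemokine Ccl2 (5.72 and 5.06 against 0.301 and 0.105 FPKM, adjusted p = 0.0185), beside 0.575% of all tested genes. Of the 5 that reached 0.5 FPKM in 3mo control, which Ccl2 did not, 1 was called. Neither gene was called with voom or with no filter on low values. At 18 months 2 of 17 were called, beside 0.124% of all tested genes, and both were among the 12 that reached 0.5 FPKM in 18mo control. These were C3 (7.40 and 22.4 against 0.582 and 0.465 FPKM) and Steap4 (7.15 and 21.9 against 0.845 and 0.634 FPKM), each with a limma adjusted p of 0.0443. Neither was called with only the 2 groups compared, with size factors, with quantile normalization or with voom. At each age all 17 had a positive difference and 15 were higher without overlap, beside 28.6% and 36.5% of all tested genes. With age 5 of 17 were called higher, as 1595 of all 13731 tested genes were, and of the 5 tested genes that reached 0.5 FPKM in 3mo control 0 were called higher. The called genes were led by Ccl3 (17.4 and 15.7 against 0.215 and 0.053 FPKM), Tnf and Tlr2 (2.14 and 2.99 against 0.076 and 0.118 FPKM). Medians above that of all tested genes, over the genes that passed the filter, were 0.74 with age, 1.01 and 1.79 after IOP at 3 and 18 months, and 2.90 after 4 elevations. Of the 17, 17, 17 and 15 genes behind these medians, 5, 5, 12 and 3 reached 0.5 FPKM in the controls compared. The others passed the filter through other groups, and no median was taken without them. Fga and Fgb, hepatocyte products, were at 0 in every library.

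**Figure D4:**
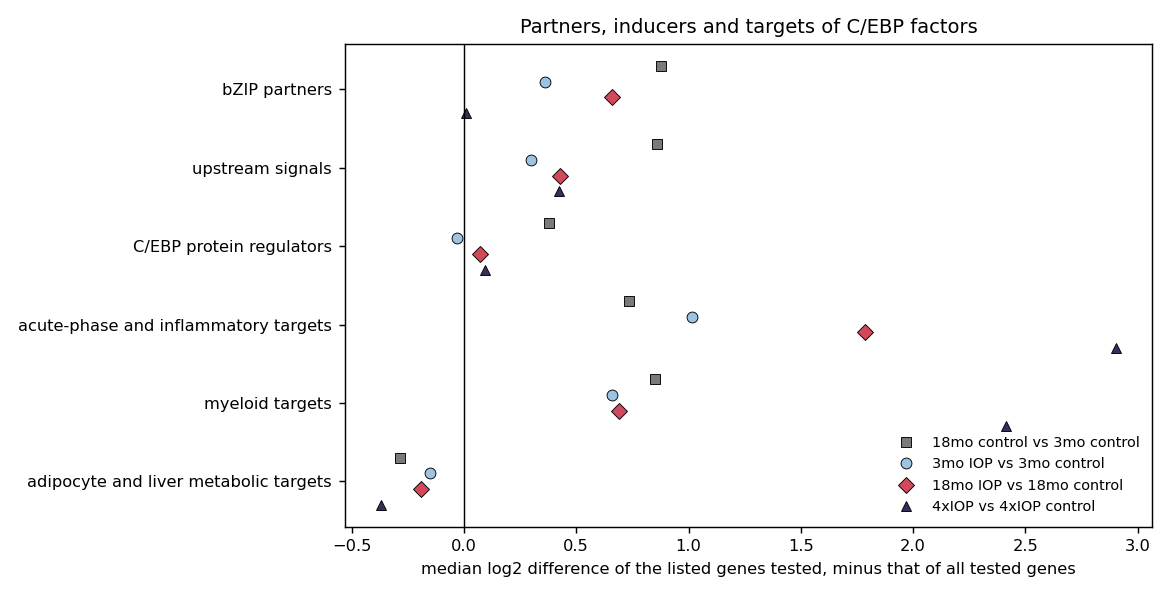
Median log2 difference of the tested genes of each list of partners, inducers, regulators and targets, less the median of all tested genes, in the 4 comparisons (symbols). Lists of cell markers are not drawn. Among the lists drawn, the acute-phase and inflammatory targets lie farthest to the right after repeated IOP (2.90), where 12 of the 15 genes passed the filter through the treated group, while metabolic targets lie between -0.37 and -0.15.

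Targets in myeloid cells were called higher with age in 6 of 11 tested genes, and in 3 of the 4 that reached 0.5 FPKM in 3mo control, as 1595 of all 13731 tested genes were. They were led by Csf1r (6.63 and 8.30 against 1.40 and 1.04 FPKM), Spi1, which did not reach that level, and Csf2ra. After a single elevation none was called at either age, although at each age all 11 had a positive difference and 9 had both treated libraries above both controls, as 28.6% of all tested genes had at 3 months and 36.5% at 18 months. Of these 11 genes 4 and 7 reached 0.5 FPKM in the controls of that age. After 4 elevations 11 of 12 rose, beside 6.15% of all tested genes called, but of the 3 that reached 0.5 FPKM in controls, which S100a8 and S100a9 did not, 2 rose. Lyz2 was at 113 and 107 against 0.837 and 0.764 FPKM (log2 difference 6.41 ± 0.217, limma adjusted p = 4.99e-09), S100a8 at 20.2 and 26.5 against 0.130 and 0 FPKM and S100a9 at 12.1 and 16.0 against 0.097 and 0.092 FPKM. Metabolic targets of fat and liver did not move together, with Fabp4 called higher and Lpl and Ttr called lower with age among 6 tested. Over all 13731 tested genes 1595 were called higher and 1590 lower. Ttr was the 1 gene of 6 called after 4 elevations, and it was lower, as 95 of all 13718 tested genes were. Ttr is also made by the retinal pigment epithelium and is itself 1 of the 8 of 9 tested markers of that tissue called lower with age, as 1590 of all 13731 tested genes were. Counting each gene of these pathway lists once, 33 genes were called with age, 5 and 3 after IOP at 3 and 18 months and 37 after 4 elevations. Over all tested genes 23.2%, 0.575%, 0.124% and 6.15% were called. The lists overlap, as in Tnf, so these totals are not given as shares of the listed genes tested. The 33 became 20 when 3mo control replicate 2 was left out and 17 when 18mo control replicate 2 was. The 5 became 0 without 3mo control replicate 1 or either 3mo IOP library. The 3 became 0 without either 18mo control library and 22 without 18mo IOP replicate 1.

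Markers of other cell types also differed between the groups. The 12 microglial markers summed to 44.9 to 69.2 FPKM in 3mo control, 125 to 163 in 3mo IOP, 140 to 155 in 18mo control, 189 to 420 in 18mo IOP, 21.8 to 22.2 in 4xIOP control and 201 to 208 in 4xIOP. Of these markers 7 of 12 were called higher with age and 10 of 11 after 4 elevations, and none after a single elevation at either age. Among those that reached 0.5 FPKM in the controls, these were 6 of 10 with age and 7 of 8 after 4 elevations. Over all tested genes 1595 of 13731 were called higher with age and 748 of 13718 after 4 elevations, and the counts of the other markers are to be read against the same totals. After a single elevation 12 of 12 microglial markers had a positive difference at 3 months and 10 of 12 at 18 months, and 11 and 5 of them did not overlap, beside 28.6% and 36.5% of all tested genes. Neutrophil markers summed to 0.116 to 0.303 FPKM in 4xIOP control and 36.4 to 45.5 FPKM in 4xIOP, most of it S100a8 and S100a9, while the granule genes Ngp, Camp, Elane and Mpo were at 0 in all 4 libraries. In 3mo IOP neutrophil markers summed to 1.32 to 2.30 against 0.576 to 0.875 FPKM, and in 18mo IOP to 4.04 to 4.80 against 0.821 to 1.38 FPKM. None of 3 tested was called at either age, and 2 were higher without overlap at each, beside 28.6% and 36.5% of all tested genes. Of these 3 genes 0 and 1 reached 0.5 FPKM in the controls. Monocyte and macrophage markers summed to 1.38 to 1.82 FPKM in 4xIOP control and 128 to 149 FPKM in 4xIOP, and all 8 tested were called higher, of which 1 reached 0.5 FPKM in controls. After a single elevation these markers summed to 23.2 to 81.1 FPKM against 8.08 to 17.2 FPKM at 3 months and to 51.7 to 53.0 FPKM against 7.46 to 13.9 FPKM at 18 months, with none called and 4 of 5 tested without overlap at each age, beside the same 28.6% and 36.5% of all tested genes. Lyz2 alone was at 113 and 107 FPKM in 4xIOP, and averaged 44.7 FPKM in 3mo IOP and 44.5 FPKM in 18mo IOP. Lyz2, S100a8, S100a9 and Csf1r are also in the list of myeloid targets, so these targets and markers are not separate observations. With age 1 of 3 tested neutrophil markers was called higher (Csf3r), though 0 of the 3 reached 0.5 FPKM in 3mo control. Of 5 tested monocyte and macrophage markers 1 was called lower with age, Plac8, at 0.229 and 0.153 against 1.49 and 10.4 FPKM. The other markers had a positive difference (4 of 5), and 2 were higher without overlap (Adgre1 and Cd14), as 45.7% of all tested genes were. Of 10 Muller glia markers, 5 were called higher with age and 1 after 4 elevations, set against the same 1595 and 748 genes. At 18 months after a single elevation none of the 10 was called, but 10 had a positive difference and 7 were higher without overlap, as 36.5% of all tested genes were, and they summed to 3318 to 3461 FPKM against 1918 to 2363 FPKM. Within these sums Apoe averaged 1487 against 616 FPKM. Glul (807 against 767 FPKM) and Rlbp1 (139 against 139 FPKM) overlapped their controls. Lens markers summed to 0.938 to 5.28 FPKM in 4xIOP control and 52.4 to 116 FPKM in 4xIOP, with 8 of 8 tested called higher, of which 2 reached 0.5 FPKM in controls. In 3mo IOP they summed to 14.5 to 42.9 against 13.4 to 18.7 FPKM, and in 18mo IOP to 8.13 to 22.3 against 4.16 to 5.41 FPKM. None of 7 tested was called at either age, and 1 and 7 were higher without overlap, beside 28.6% and 36.5% of all tested genes. Of these 7 genes 6 and 3 reached 0.5 FPKM in the controls. Of the pigment epithelium markers 1 of 9 was called higher after IOP at 3 months (Mlana), beside 78 of all tested genes. Only 3 of the 9 had a positive difference there, and the median of the 9 was -0.30. After 4 elevations 4 of 5 were called lower, beside 95 of all tested genes. Rod photoreceptor markers were lower, with summed levels of 18652 to 21287 FPKM in 18mo control against 27009 to 33711 FPKM in 3mo control and of 5414 to 8139 FPKM in 4xIOP against 11175 to 11651 FPKM in 4xIOP control. With age 8 of these 10 markers were lower without overlap and 2 were called lower, and after 4 elevations 9 were lower without overlap and none was called. Of all tested genes 4502 of 13731 were lower without overlap with age, and 1739 of 13718 after 4 elevations. In 3mo IOP the rod markers summed to 26587 to 28718 FPKM and in 18mo IOP to 14320 to 17399 FPKM. There 4 and 5 of 10 were lower without overlap, beside 542 and 1358 of all 13731 tested genes, and none was called. Sag was higher without overlap in 18mo IOP. Blood markers summed to 166 to 426 FPKM in 18mo control and 44.3 to 54.3 FPKM in 18mo IOP. The part of these cells in the levels of Cebpa, Cebpb, Cebpd and Cebpg was not tested.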

How the data were processed

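RNA of fresh retinas was extracted in TRIzol and made into poly(A)-enriched, strand-specific TruSeq libraries. The authors aligned reads to mm10 with STAR (2.7.8a in the submitters' notes) and counted uniquely mapped tags in exons by strand with HOMER, 1 isoform per locus. The values the authors deposited are FPKM, 1 table for each experiment, with replicates not pooled. FPKM times transcript length gave whole tags for at least 99.95% of the values checked, which set the depths. Genes averaging 0.5 FPKM or more (13731 and 13718) were fitted as log2(FPKM + 0.5) in limma 3.58.1 under R 4.3.3, using lmFit and a trended eBayes, the 8 single-elevation libraries as 4 groups and the 4 repeated-elevation libraries alone. Calls needed an absolute difference of 1 or more and a p of 0.05 or less after Benjamini-Hochberg adjustment over all tested genes. The members and the gene lists were chosen with earlier results of these data known. Named genes are the members, the 3 called genes of each list with the largest difference and no overlap between groups, the 3 genes most like each member, and genes needed to name a count of 5 or fewer. The fit was tested on simulated data, as a check of the code only. Alternatives changed the pseudocount, filter, scaling, trend, block, libraries and test, with GC trends and a crossed block added after seeing the data.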

Additional observations from a re-analysis of the deposited data

How the results depend on the processing

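With 2 libraries a group the standard errors are wide, and levels under 1 FPKM rest on few tags. Of 212 member values under alternatives other than leaving out a library, 173 moved by less than the spread between replicates and 39 by more. The 173 include the replicate block, the crossed block and the fit of only the 2 groups compared. Those settings keep the same group means, so their member differences could not move. No member difference of 1 or more in size changed sign. Where no cause is named, it was not tested. The pseudocount matters most for Cebpa and Cebpb, by construction, since their control levels lie near it.

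With a pseudocount of 0.1, Cebpa differed by 2.17 with age, 1.09 at 3mo IOP and 2.24 at 4xIOP, and by -0.35 in its 18mo minus 3mo response. Cebpb differed by 2.88 with age and 2.13 at 4xIOP, and Cebpd by 4.39 at 4xIOP. With a pseudocount of 1, Cebpa differed by 1.12 with age, 0.46 at 3mo IOP and 0.88 at 4xIOP, Cebpb by 1.10 and Cebpd by 3.63 at 4xIOP. Quantile normalization gave Cebpa 1.33 with age, 0.43 at 3mo IOP and 0.83 at 4xIOP, Cebpb 1.16 at 4xIOP, and Cebpg 0.10 with age, -0.040 at 3mo IOP, 0.014 at 18mo IOP and 0.31 at 4xIOP. Median-of-ratios size factors gave Cebpg -0.062 at 3mo IOP, 0.020 at 18mo IOP and 0.30 at 4xIOP. Voom gave Cebpa 2.28 with age, 1.09 at 3mo IOP, 2.66 at 4xIOP and -0.46 in its response, Cebpb 2.27 and Cebpd 4.37 at 4xIOP, and Cebpg -0.073 at 3mo IOP, 0.024 at 18mo IOP and 0.33 at 4xIOP. With the length trend removed, Cebpg differed by 0.0021 with age and 0.48 at 4xIOP. With the GC trend removed, Cebpa differed by 1.06, Cebpb by 2.03 and Cebpg by 0.71 with age, and Cebpb by 1.74 at 4xIOP. With both removed, Cebpa differed by 0.81 with age. Leaving out each library gave responses of -0.39 to 0.32 for Cebpa and -0.13 to 0.15 for Cebpg.

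Of all genes, 3185 were called with age, against 1346 with length and GC trends removed and 1176 to 4717 when a library was left out. At 3mo IOP the 79 became 9 with no filter, 21 with size factors, 14 with quantile normalization, 120 with the length trend removed, 3 with voom and 0 to 257 without a library. At 18mo IOP the 17 became 0 with a pseudocount of 0.1, size factors, voom or only the 2 groups compared, 1 with no filter, 9 under a minimum mean of 2 FPKM, 4 with quantile normalization, 41 with the length trend and 67 with length and GC trends removed, and 0 to 144 without a library. At 4xIOP the 843 became 475 under that minimum. Of listed genes, 17 to 31 were called with age without a library (33 with all). At 3mo IOP the 5 became 0 with no filter or voom, 2 with size factors, 1 with quantile normalization, 9 with only the 2 groups compared and 0 to 5 without a library. At 18mo IOP the 3 became 0 with a pseudocount of 0.1, no filter, size factors, quantile normalization, voom or only the 2 groups compared, 5 with a pseudocount of 1 or the length trend removed, 8 with length and GC trends removed, and 0 to 22 without a library. The interaction called 2 genes with no filter and 2 without 3mo IOP replicate 2, and 0 in the other settings.

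Same-numbered libraries deviated in opposite directions (correlation -0.28 at 3 months, -0.53 at 18 months and -0.29 in the repeated experiment), and the numbers were not taken as pairs. With the replicate block, 3133 genes were called with age, 53 at 3mo IOP, 0 at 18mo IOP and 864 at 4xIOP, and 33, 3, 0 and 37 listed genes. With the crossed replicate block, chosen after seeing the data, 3210, 66, 0 and 894 genes were called, and 34, 4, 0 and 37 listed genes.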
